A study of Mus musculus with 6 samples.

Results

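The genes described here were 10 listed members of a pair of imprinted clusters on mouse chromosome 7, of 37252 annotated genes in all. The Snrpn cluster gave 5 members, Snrpn, Ube3a, Ndn, Magel2 and Mkrn3. The Kcnq1 cluster gave the other 5, Kcnq1ot1, Kcnq1, Cdkn1c, Phlda2 and Ascl2. All rows of the deposited peak lists in the gene bodies and in 50 kb on each side were taken, on mm9 (NCBIM37) coordinates. The merged windows of the Snrpn cluster measured 608 kb and those of the Kcnq1 cluster 598 kb.

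The study mapped Setdb1, an enzyme that trimethylates lysine 9 of histone H3, and the H3K9me3 mark by ChIP-seq in dividing C2C12 myoblasts, a mouse muscle precursor cell line. The lists used here were of H3K9me3, from an untreated culture, and of Setdb1, each called over an input library. Setdb1 was immunoprecipitated from untreated cells, from cells given 50 ng/ml Wnt3a for 24 h and from a DMSO culture, and the Wnt3a effect was not analysed here. The Setdb1 list itself did not name which of these it was called on. The paper describes the sites as found in proliferating myoblasts, and reports lower Setdb1 binding around them after Wnt3a. It states that peaks were called on the most enriched of its independent Setdb1 experiments, without naming the library. Each group here had 1 library, and no difference below was tested against a replicate.

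In genomic imprinting, a gene is read from a single parental copy, and a control region whose DNA is methylated on the other parental copy keeps the pattern through development. At both clusters that region is the start of a gene read from the paternal copy: the inner Snrpn start, where DNA is methylated on the maternal copy, and the start of the long noncoding RNA Kcnq1ot1, which is read antisense inside Kcnq1. In mouse embryonic cells the zinc finger protein ZFP57 binds methylated control regions and recruits TRIM28 and Setdb1, which places H3K9me3 on that copy. The reads were not assigned to a parental copy, so each value below is a sum over both.

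The sequences under the start peaks that the results turn on are printed first, with the strongest peak of the Kcnq1ot1 stretch for contrast. They were read from NCBIM37 on the strand of the gene, around the peak summit, and CpG dinucleotides, the sites of DNA methylation, are in capitals. The Snrpn run was instead the 256 bases from the peak's upstream edge to at most 30 bases past RefSeq's start of the shorter transcript. It overlapped only part of the 300-base window around the summit, 67149908 to 67150207. The other runs hold 300 bases.
Snrpn inner start, chr7:67150056-67150311, minus strand: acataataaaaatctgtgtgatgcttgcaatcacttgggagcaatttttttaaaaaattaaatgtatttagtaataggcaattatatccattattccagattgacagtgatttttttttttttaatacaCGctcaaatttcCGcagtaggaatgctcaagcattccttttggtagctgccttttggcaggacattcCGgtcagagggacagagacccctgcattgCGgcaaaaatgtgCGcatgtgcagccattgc
Kcnq1ot1 start, nearer peak, chr7:150481965-150482264, minus strand: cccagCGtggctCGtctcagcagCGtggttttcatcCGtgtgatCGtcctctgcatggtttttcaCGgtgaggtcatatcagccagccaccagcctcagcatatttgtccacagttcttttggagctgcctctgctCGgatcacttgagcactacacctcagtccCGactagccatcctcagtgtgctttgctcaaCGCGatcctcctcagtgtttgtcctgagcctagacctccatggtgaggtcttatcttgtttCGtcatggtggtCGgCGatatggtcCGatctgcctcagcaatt
Kcnq1ot1 start, stronger peak, chr7:150481167-150481466, minus strand: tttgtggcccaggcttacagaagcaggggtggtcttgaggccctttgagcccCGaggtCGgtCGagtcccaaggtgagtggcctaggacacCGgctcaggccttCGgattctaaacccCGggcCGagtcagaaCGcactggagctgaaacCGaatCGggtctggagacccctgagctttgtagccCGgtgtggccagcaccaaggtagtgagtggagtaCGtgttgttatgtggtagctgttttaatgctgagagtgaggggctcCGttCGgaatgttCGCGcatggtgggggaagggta
Kcnq1ot1 stretch, strongest peak, chr7:150411668-150411967, minus strand: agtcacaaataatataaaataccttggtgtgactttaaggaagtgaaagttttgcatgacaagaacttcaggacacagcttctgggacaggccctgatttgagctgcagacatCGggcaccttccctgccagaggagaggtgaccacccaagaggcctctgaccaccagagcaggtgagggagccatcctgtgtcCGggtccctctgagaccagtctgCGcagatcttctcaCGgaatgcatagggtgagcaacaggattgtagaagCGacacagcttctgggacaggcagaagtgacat
Cdkn1c start peak, chr7:150646138-150646437, minus strand: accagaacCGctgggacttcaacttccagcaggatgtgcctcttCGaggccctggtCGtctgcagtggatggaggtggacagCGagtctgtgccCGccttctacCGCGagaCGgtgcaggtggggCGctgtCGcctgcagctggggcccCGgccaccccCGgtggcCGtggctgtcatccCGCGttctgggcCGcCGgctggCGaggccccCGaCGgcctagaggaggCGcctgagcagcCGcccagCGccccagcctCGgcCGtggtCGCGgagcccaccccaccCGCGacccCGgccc

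The start peaks lay in CpG-rich sequence. In the 300-base window around the summit there were 16 CpGs at the Snrpn inner start. The nearer and the stronger Kcnq1ot1 start peak had 14 and 16. The printed Snrpn run, which overlaps its window only in part, held 5. There were 30 at Cdkn1c. The strongest peak of the Kcnq1ot1 stretch, 70.6 kb from the start, had 5. A median of 2.0 CpGs was found around all 80467 H3K9me3 summits that could be read and a median of 15 around the outermost starts of 22347 protein-coding genes. At least 14 CpGs were present at 2.21% of the summits and 51.7% of those starts. The Kcnq1ot1 start peaks therefore were richer in CpG than most of the stretch, whose 26 windows, these included, had a median of 2.0.

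The letters TGCCGC, the core that ZFP57 binds when its CpG is methylated, were searched on both strands. They occurred 2 times in the Snrpn window, 1 of them in the printed run, and 1 time in the Magel2 window, and these were the 2 of 36 windows in both clusters that held them. The share was 3.27% over all H3K9me3 summits and 17.7% over protein-coding starts. CCATNTT, the core of the YY1 motif, where N is any base, was in 4 of the 36 windows, all in the Kcnq1ot1 stretch and none at a start peak. It was in 21.8% of all summits and 16.0% of starts. A match is a description of the letters and not a bound site.

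Across both clusters the lists held 36 H3K9me3 peaks of the caller MACS, with 6 in the Snrpn cluster and 30 in the Kcnq1 cluster. The caller SICER, which joins weak signal into broad islands, gave 3 islands in the Snrpn cluster and 4 in the Kcnq1 cluster. Merged, the regions covered 2.28% of the Snrpn windows and 12.4% of the Kcnq1 windows, against 4.36% of chromosome 7 and 7.4% of the genome. Peak density was 0.988 per 100 kb in the Snrpn cluster and 5.02 in the Kcnq1 cluster, against 1.93 on chromosome 7 and 3.15 in the genome. The Snrpn cluster lay below chromosome 7 in both measures and the Kcnq1 cluster above it. Most of the Kcnq1 signal came from a single stretch inside Kcnq1.

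A region of H3K9me3 lay 1 kb or less from a start of 5 of the 10 members, Snrpn, Ndn, Magel2, Kcnq1ot1 and Cdkn1c, against 11.6% of all genes. The same 5 had a MACS peak there, against 8.25% of all genes. A region was present in the body or 50 kb around at 9 of 10 members, all but Ube3a, which was near the 77.3% of all genes. No Setdb1 site was listed in the body or 50 kb around at any of the 10 members, where 7.97% of all genes had 1, so that a count of 0 of 10 was close to the share of all genes. Neighbouring members share peaks and windows, so the 10 genes are not independent observations.

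Snrpn encodes a small nuclear ribonucleoprotein of the spliceosome. The annotation (ENSMUSG00000000948.9, 67127388 to 67285105, minus strand) gave an outer start at 67285105 and an inner start at 67150042. The peak at the inner start ran from 67149097 to 67150311 and held 59 tags (95% exact Poisson interval 44.9 to 76.1, counting error only) at a fold enrichment of 7.56 over input, with a false discovery rate of 1.28%. Its summit, at 67150058, was 16 bases upstream of the inner start. It had more tags than 94.6% of all H3K9me3 peaks and a higher fold than 85.3%.

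A smaller peak 1.5 kb downstream had 13 tags (6.92 to 22.2) and a fold of 4.81. Both lay in an island of 3.4 kb, which was shorter than most, with 15.9% of islands shorter still. Outside that island no region was listed in Snrpn. The island took up 2.16% of its 158-kb body, and none was listed within 1 kb of the outer start. H3K9me3 at Snrpn was in these lists a short block on the control region.

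Ube3a, which encodes a ubiquitin ligase and is read from the maternal copy in neurons, lies on the plus strand from 66484122 to 66562097 (ENSMUSG00000025326.7). It had no peak and no island in its 78.0-kb body or in 50 kb on either side. It was the only member with none.

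Ndn, Magel2 and Mkrn3 are genes without introns that are read from the paternal copy. The stretch from the Ndn start to the Mkrn3 start measured 71.9 kb, of which 7.24 kb or 10.1% was covered, with 3 peaks and 46 tags. Ndn, the gene of the growth suppressor necdin, lies on the plus strand from 69493163 to 69494814 (ENSMUSG00000033585.4), wholly inside an island of 6.0 kb. Its start peak had 10 tags (4.8 to 18.4) and a fold of 4.81, with its summit 22 bases upstream of the start. A further peak 0.449 kb downstream had 20 tags (12.2 to 30.9) and a fold of 4.12. Their false discovery rates were 5.51% and 1.77%, so Ndn had full cover of its 1.65-kb body but weak peaks. The island was of middling length, with 51.6% of islands shorter.

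Magel2, a partner of ubiquitin ligases, lies on the plus strand from 69521865 to 69526526 (ENSMUSG00000056972.5). An island of 4.0 kb covered 84.4% of its body. Its single peak had 16 tags (9.15 to 26.0), a fold of 6.18 and a summit 1.05 kb downstream of the start. Mkrn3, a RING finger gene known for its part in the timing of puberty, lies on the minus strand from 69562479 to 69565039 (ENSMUSG00000070527.2) and had no region in its body or at its start. The peak nearest to its start, 41.9 kb away, was the one in Magel2. On the other side the next peak lay inside Peg12, another paternally read gene, with 21 tags (13.0 to 32.1), a fold of 6.87 and no island. H3K9me3 regions were therefore listed at Ndn, Magel2 and Peg12 and not at Mkrn3, which lies between Magel2 and Peg12.

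Ndn was the member with at least 90% of its body in H3K9me3 regions, 1 of 9 members with an annotated body, against 1.66% of protein-coding genes. This limit was chosen after the values were seen. No region was listed in the body of 4 of these 9 members, Ube3a, Mkrn3, Phlda2 and Ascl2, against 70.1% of protein-coding genes. Cover was 87.2% of the body at Cdkn1c, 84.4% at Magel2, 22.0% at Kcnq1 and 2.16% at Snrpn.

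**Figure D1:**
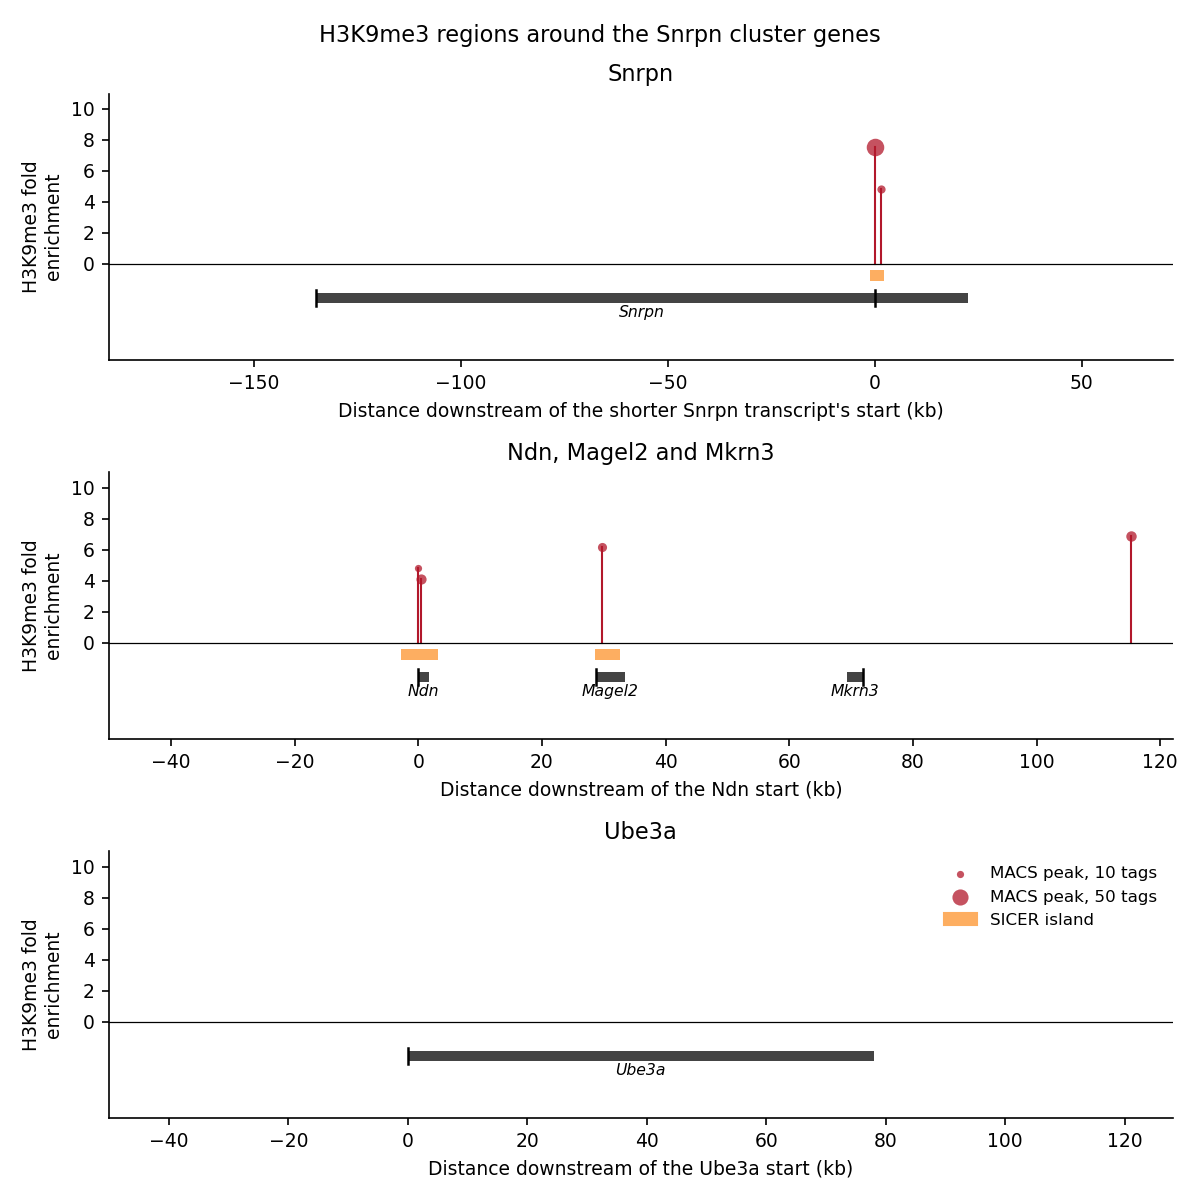
H3K9me3 in the windows of the Snrpn cluster, by distance (kb) from the inner Snrpn start, the Ndn start and the Ube3a start. Lines with points are MACS peaks at their summit, with height giving fold enrichment over input and point area giving tags. Orange bars are SICER islands, grey bars gene bodies and black ticks annotated starts. The 59-tag peak stands at the inner Snrpn start, weaker ones stand at Ndn and Magel2, and the Ube3a panel is empty.

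Kcnq1ot1 is not in the GENCODE vM1 annotation under this symbol. Its start was placed at 150482452 on the minus strand by a single exact match of RefSeq's promoter sequence (GRCm38.p6) to NCBIM37. Its far end was not placed on mm9, and RefSeq's GRCm38.p6 length of 83437 bases was laid downstream of the start to give what is called here the Kcnq1ot1 stretch.

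At the Kcnq1ot1 start 2 peaks were listed, and both were small. The nearer ran from 150481893 to 150482330, 0.121 kb from the start, with 18 tags (10.7 to 28.4), a fold of 5.06 and a false discovery rate of 4.55%. The stronger ran from 150481129 to 150481527, with its summit 1.14 kb downstream, 16 tags (9.15 to 26.0), a fold of 7.56 and a rate of 2.94%. Neither lay in an island. The stronger peak had the same fold as the Snrpn start peak, 7.56, and its tag interval lay below that of the Snrpn peak, 44.9 to 76.1. It was also shorter, at 399 bases against 1215, and tags were not adjusted for length.

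Downstream of that start, H3K9me3 extended over most of the transcript's length. The stretch held 26 peaks with folds of 4.69 to 9.62 (median 5.67) and 10 to 79 tags (median 17), and 75.9% of it was covered. The genome was cut into 30633 consecutive pieces of the same length, which had a median of 1 peak and 0.958% covered. At least as many peaks were found in 1.03% of these pieces and at least as much cover in 1.58%. This is a description of where the stretch stood, and no test was made.

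An island of 33.4 kb with 14 peaks and 520 tags and an island of 28.0 kb with 7 peaks and 99 tags made up nearly all of this cover. They were longer than 98.6% and 98.0% of all islands. The longer island, from 150411201 to 150444600, was the farther of the pair from the start.

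The tags were unevenly spread along the stretch. In successive bins of 10 kb from the start the peaks held 61, 56, 14, 12, 232, 108, 130 and 79 tags, and no peak was listed beyond 80 kb. The first 40 kb had 10 peaks and 143 tags, and none of these peaks reached a MACS score of 50, the caller's −10log10 of the p-value. The 43.4 kb beyond had 16 peaks and 549 tags, of which 8 peaks reached that score. The split at 40 kb was chosen after the values were seen. The peaks strong in tags and score were in the distal part, away from the control region. Fold differed less, with a median of 5.5 in the first 40 kb and 6.01 beyond. Median peak length was 355.5 and 486.5 bases, and tags were not adjusted for it.

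The peak with the highest fold in either cluster, 9.62, ran from 150411071 to 150411905 and had 50 tags (37.1 to 65.9), with its summit 70.6 kb downstream of the Kcnq1ot1 start. The peak with the most tags, 79 (62.5 to 98.5), ran from 150435812 to 150437484 at a fold of 8.25, with its summit 46.2 kb downstream. Peaks of 74 tags (58.1 to 92.9) at 6.87-fold and 61 tags (46.7 to 78.4) at 7.56-fold lay 59.0 and 44.7 kb downstream. All lay in introns of Kcnq1.

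The signal lay downstream of the start and not upstream. No peak or island was listed in the 50 kb upstream of the Kcnq1ot1 start. Kcnq1, a subunit of a voltage-gated potassium channel of the heart, lies on the plus strand from 150293159 to 150612955 (ENSMUSG00000009545.7), and its 320.0-kb body held 27 peaks with 725 tags. Of these, 26 were in the Kcnq1ot1 stretch. The 106 kb of Kcnq1 on its own 5′ side of the stretch had 1 peak and the 131 kb on its 3′ side had 0. The 5′ peak had 33 tags (22.7 to 46.3), a fold of 5.14 and an island of 7.0 kb, and was 7.12 kb from the nearest of the 3 annotated Kcnq1 starts.

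**Figure D2:**
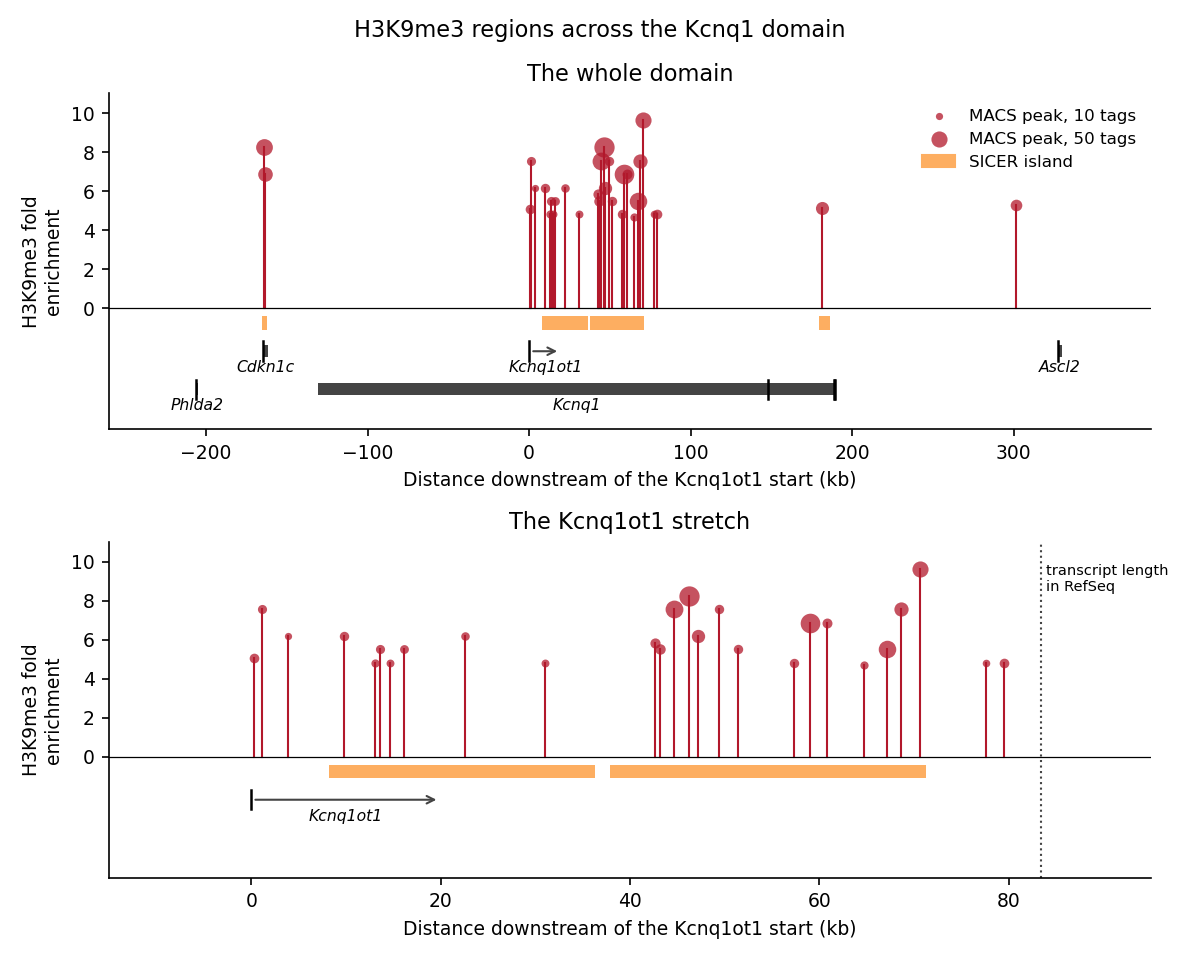
H3K9me3 across the Kcnq1 domain (upper panel) and along the Kcnq1ot1 stretch (lower panel), by distance (kb) downstream of the Kcnq1ot1 start. Lines with points are MACS peaks, with height giving fold enrichment over input and point area giving tags. Orange bars are SICER islands, grey bars gene bodies, black ticks annotated starts, the arrow the direction of Kcnq1ot1 and the dotted line the end of its RefSeq length. The 26 peaks of the stretch start at the Kcnq1ot1 start, the large ones lie beyond 40 kb, and the nearest peaks on the other side are those of Cdkn1c.

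Cdkn1c encodes p57Kip2, an inhibitor of cyclin-dependent kinases with a known part in the cell cycle exit of muscle cells, and is read from the maternal copy. It lies on the minus strand from 150644255 to 150646955 (ENSMUSG00000037664.6), 163 kb of peak-free sequence away from the Kcnq1ot1 stretch. The peak over its start, from 150646054 to 150646989, had 54 tags (40.6 to 70.5), a fold of 8.25 and a false discovery rate of 1.24%. A neighbouring peak with its summit 1.18 kb downstream had 41 tags (29.4 to 55.6) and a fold of 6.87. Both lay in an island of 3.0 kb that covered 87.2% of the gene. Of the member starts, Cdkn1c had the highest fold and Snrpn the most tags, and their tag intervals overlapped.

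Phlda2, which restrains growth of the placenta, and Ascl2, a transcription factor of the trophoblast, are read from the maternal copy. Phlda2 (ENSMUSG00000010760.4, 150687450 to 150688446, minus strand) had no region, and the nearest peak, at Cdkn1c, was 41.5 kb from its start. Ascl2 (ENSMUSG00000009248.5, 150152727 to 150155169, minus strand) had none either, and the nearest peak, with 26 tags (17.0 to 38.1), a fold of 5.31 and no island, was 25.1 kb away. Cdkn1c was therefore the only protein-coding member of its cluster with H3K9me3 within 1 kb of a start.

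None of the 36 cluster peaks overlapped a Setdb1 site, so H3K9me3 with and without Setdb1 could be set side by side only against peaks elsewhere. The cluster peaks had a median fold of 5.67 and a median of 18 tags, and 80.6% lay in islands. The 803 peaks of the genome that held a Setdb1 site had a median fold of 8.25 and 58 tags, with 86.3% in islands. The 79677 peaks without a site had a median fold of 5.5 and 18 tags, with 63.8% in islands. Median length was 439 bases for the cluster peaks, 959 for peaks with a site and 421 for peaks without. Tags were not adjusted for length. In tags and fold the cluster peaks were close to the peaks without Setdb1, a set that includes all 36 of them. In the share in islands the cluster peaks lay between both sets. The Snrpn and Cdkn1c start peaks, at 59 and 54 tags, were near the median of peaks that hold a site and held none.

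**Figure D3:**
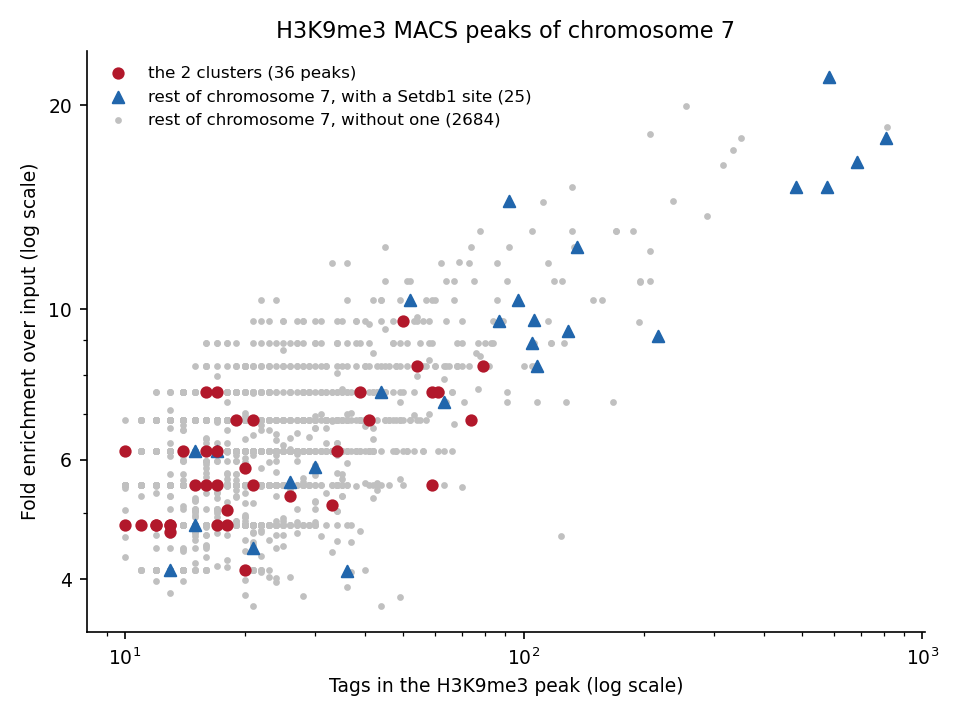
Tags (x axis, log scale) and fold enrichment over input (y axis, log scale) of the H3K9me3 MACS peaks of chromosome 7, with 1 point for each of 2745 peaks. Red circles are the 36 peaks of both clusters, blue triangles the 25 peaks that hold a Setdb1 site and grey points the rest. The red circles reach 79 tags and 9.62-fold, and the blue triangles spread to higher values.

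The Setdb1 list held 1191 sites, 44 of them on chromosome 7, and 820 lay in H3K9me3 regions. Its lowest values were 12 tags and a fold of 4.01, and weaker signal would not be listed. The paper states that its number of sites is certainly too low, because sequencing depth had not reached a plateau. The site nearest to the Kcnq1 cluster, from 150881988 to 150882476, was 144 kb beyond the windows with 25 tags and a fold of 7.38. It lay within 10 kb of a start of Osbpl5, an oxysterol-binding protein gene, and in no H3K9me3 region. On the other side the nearest, with 24 tags and a fold of 6.71, was 383 kb away and in no region either. The Snrpn cluster was farther from any site, 2440 kb on 1 side (28 tags, 4.7-fold) and 7320 kb on the other (86 tags, 10.74-fold), and both of these sites were in H3K9me3 regions.

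The member starts were set beside 14 other imprinted genes whose promoter is methylated on the maternal copy. Of these, 13 could be placed and Peg13 could not. This list was drawn up with its Setdb1 sites known, so the comparison is a description. Each gene entered with its highest-fold peak at a start, so Ndn entered with 10 tags and Kcnq1ot1 with 16. The other genes had up to 12 annotated starts (Plagl1) and the members up to 3 (Kcnq1), and this was not adjusted for. Of the members 5 of 10 had an H3K9me3 peak within 1 kb of a start, with folds of 4.81 to 8.25 (median 7.56) and 10 to 59 tags (median 16), and 0 had a Setdb1 site within 10 kb. Of the other imprinted genes 13 of 13 had a peak, with folds of 7.03 to 21.19 (median 10.7) and 42 to 667 tags (median 146), and 12 had a Setdb1 site. The share of all genes with a site within 10 kb of a start was not computed. That share cannot exceed the 7.97% with a site in the body or 50 kb around, so 0 of 10 members was close to it. The 5 member starts with a peak include Ndn, Magel2 and Cdkn1c, which are not the control regions of their clusters.

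The ranges of fold and of tags of both sets overlapped at their edges. In tags the Snrpn and Cdkn1c start peaks, at 59 and 54, were above the lowest of the other genes, at 42. Peg10, a retrotransposon-derived gene of the placenta, was the lowest of the other genes in fold, with 7.03 and 58 tags, below the fold of the Snrpn, Kcnq1ot1 and Cdkn1c start peaks. Nnat, a gene of neuronal development, was the highest, with 21.19 and 667 tags. Slc38a4, an amino acid transporter gene, had 258 tags and a fold of 10.67 with no Setdb1 site listed within 10 kb, as at the members. The Kcnq1ot1 start peaks, at 16 and 18 tags, lay below the highest-fold start peak of each of the 13 in tags. Smaller peaks were also listed within 1 kb of a start of Inpp5f, among them peaks of 15 and 17 tags.

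**Figure D4:**
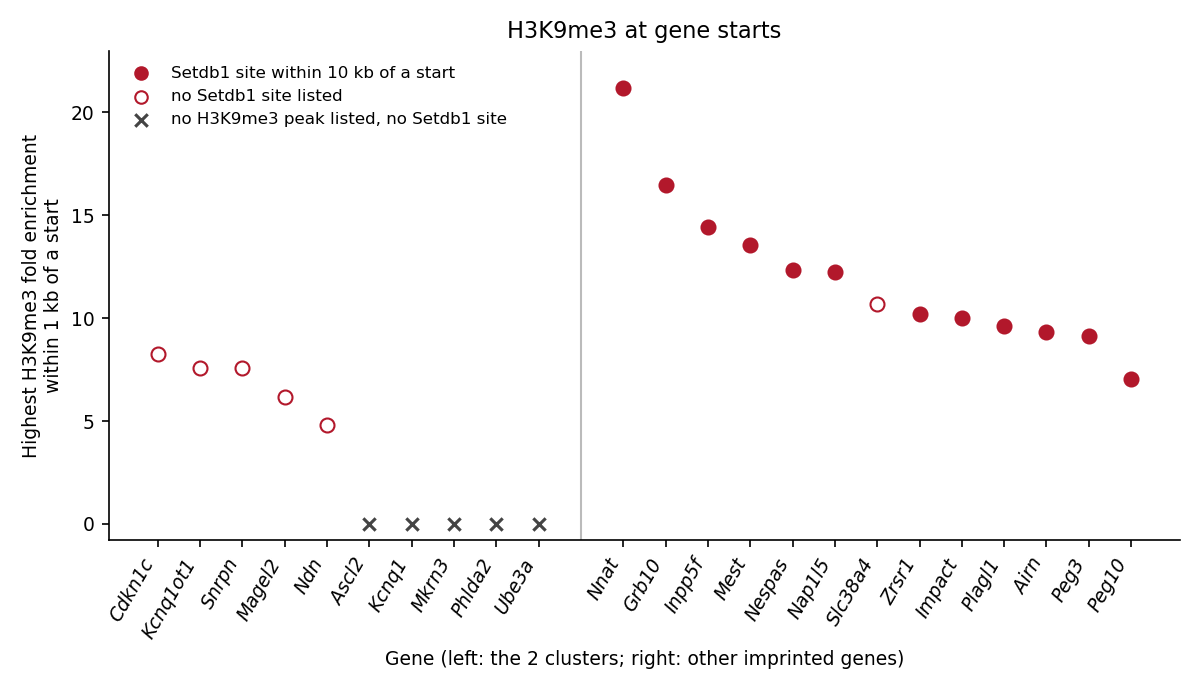
Highest H3K9me3 fold enrichment over input of a MACS peak within 1 kb of a start, for the 10 members (left) and 13 other imprinted genes with a maternally methylated promoter (right), each ordered by fold. Filled circles have a Setdb1 site within 10 kb of a start, open circles none listed, and crosses at 0 mark genes with no peak listed. The members lie at 8.25 or lower with no filled circle, and the others at 7.03 or higher with 12 filled circles.

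Some genes farther out also had H3K9me3 at a start. On the Snrpn side a region lay within 1 kb of a start at Snurf, which shares the inner Snrpn start, at Peg12, and at the GABA receptor subunit genes Gabra5 and Gabrg3, each with 20 tags and a fold of 5.5. The host transcript Snhg14 and the noncoding RNA Ipw had none at their starts. On the Kcnq1 side 1 of 14 had a region, against 11.6% of all genes, so the count was close to that share. It was the receptor gene Tnfrsf22, with 13 tags and a fold of 6.87 in an island of 5.0 kb. Of the neighbours named here with a peak, all but Snurf had fewer tags than the Snrpn and Cdkn1c starts.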

How the data were processed

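Peak lists from ChIP-seq of C2C12 myoblasts were used. Per the study's methods and the submitters' processing notes, the authors aligned reads to mm9 with Bowtie 0.12.7, kept uniquely mapped reads, removed PCR duplicates and called enrichment over input with MACS 1.4 and, for H3K9me3, SICER. Reads in repeats that cannot be mapped uniquely are therefore missing. The deposited MACS lists give tag counts per peak, a fold enrichment (a ratio to input), a score of −10log10 of the p-value and, as a percent, a false discovery rate. No library totals were used, and depth is known only through tags per peak. Setdb1 sites had passed stricter thresholds than H3K9me3 peaks.

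Genes came from GENCODE vM1 (NCBIM37). MACS peaks and SICER islands were merged into H3K9me3 regions, and an overlap of 1 base counted. Intervals on tag counts are exact Poisson intervals at 95% (SciPy 1.17.1, Python 3.11.15). Interval code was tested on simulated data. Named genes were the 10 members, neighbours with a region or site at a start, and the lowest, the highest and the exceptional gene of the comparison list. Those of the comparison list, Snhg14 and Ipw, were named after their values were seen. A result of the Snrpn-side list is not reported here. Sequences at the Kcnq1ot1 nearer peak, the stretch and Cdkn1c, and the changed limits of the Snrpn run, were also chosen later. The members and lists were chosen with earlier results of these data known. Alternatives covered thresholds, flanks, callers, overlap, transcript starts and distance.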

Additional observations from a re-analysis of the deposited data

How the results depend on the processing

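Of 45 alternative values, 38 moved by less than 1.5 times and 7 by more. The 38 include the Setdb1 counts, which the settings run could not raise above 0. Keeping only H3K9me3 MACS peaks with a score of at least 50 left 2 peaks in the Snrpn cluster and 12 in the Kcnq1 cluster, and left no peak at the Kcnq1ot1 start. A flank of 10 kb raised the covered share of the Snrpn windows to 3.89%. Gene bodies alone gave 3.68% covered for Snrpn and 22.3% for Kcnq1, and MACS peaks alone gave 0.519% for Snrpn and 3.06% for Kcnq1. These shifts follow from the number of peaks kept and the length of sequence counted. With the outermost Snrpn start alone no peak was listed at a start. The members with a region at a start numbered 4 under the higher score, SICER alone or the outermost start, 6 within 5 kb, where Kcnq1 was added, and 5 under MACS alone. A false discovery rate of at most 5%, chosen after seeing the data, left 4 and 27 peaks and 5 members with a region at a start. Setdb1 sites stayed at 0 under the narrower flanks and the stricter overlap run. These settings can only lower a count, so that result was fixed in advance. No setting that could raise the count was run. No paired analysis was possible because the groups hold 1 library each. A peak of 10 tags is at the lower limit of the H3K9me3 list, and weaker signal cannot be told from none.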
